A study of Mus musculus with 20 samples.

Results

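The genes described here encode the 34 proteasome subunits Psma1 to Psma7, Psmb1 to Psmb7, Psmc1 to Psmc6 and Psmd1 to Psmd14. They were chosen by symbol, as the rows of a mouse muscle count table whose Ensembl identifiers carry these names in the GENCODE M21 annotation of GRCm38, and all 34 were found among 46078 gene rows. Of them, 14 encode the core particle and 20 were counted with the regulatory particle. These 20 include Psmd5, Psmd9 and Psmd10, chaperones of its base, which are called subunits here with the rest. RNA-seq of polyadenylated RNA was made from muscle of mice on a 129/C57BL/6 background, at least 9 weeks old when the diets began. Cse (gene symbol Cth) encodes cystathionine γ-lyase, the enzyme that releases cysteine from cystathionine, and knockout (KO) mice without it depend on dietary cysteine. The 20 libraries, 1 mouse each by the numbers in the table, fell into 6 groups: 3 wild-type (WT) and 4 KO mice on the control diet, 3 WT and 3 KO mice on a diet without cysteine (no-Cys), and 2 WT and 5 KO mice on a diet without tryptophan (no-Trp). The labels name the comparison genotype WT, whereas the study's text and mouse list give it as Cse heterozygous, and WT is kept here as the name of that group only. Every group was calorie-restricted and none was freely fed: the mice had 3 days of restricted control food and then 2 days of the test diet. The columns of the table carry mouse numbers and no group, and their groups were taken from the study's list of mouse numbers for muscle.

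The proteasome is the protease that degrades proteins tagged with ubiquitin. Its core particle is a barrel of 4 stacked rings, in which the outer alpha rings form the gate and the inner beta rings hold the catalytic sites. The regulatory particle caps the barrel: a base with a ring of ATPases unfolds the substrate and threads it into the core, and a lid removes the ubiquitin chain. In skeletal muscle this system carries out much of the protein breakdown of fasting and atrophy, and when proteasome activity falls short, the transcription factor NRF1 (Nfe2l1) is known to raise the subunit genes together. All values below are transcript levels, and none is a protein level or an enzyme activity.

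Libraries held 23374720 to 73154363 counts. Cth itself, the targeted gene, lay between 1.09 and 3.91 counts per 1000000 counts of the library (CPM, with library sizes scaled by the trimmed mean of M-values, TMM) in the 8 WT libraries and between 0.501 and 1.21 CPM in the 12 KO libraries. The ranges overlapped at a single WT library on the no-Trp diet (mouse av18, 1.09 CPM). In edgeR's quasi-likelihood test with Benjamini-Hochberg adjustment, Cth passed on the no-Cys diet (log2 fold change −1.72, SE 0.36, adjusted p = 0.0146) and did not pass on the control diet (−1.25, SE 0.30, adjusted p = 0.444) or the no-Trp diet (−1.30, SE 0.33, adjusted p = 0.882). No source used here names the exons removed by the knockout, so reads counted over the whole gene check the labels only in part. Skeletal muscle fibre markers (10 of 10 detected) summed to between 121000 and 163000 CPM, as the tissue label says. A pair of libraries had the lowest sums, mouse av12 (KO no-Cys, 123000 CPM) and mouse av16 (WT no-Trp, 121000 CPM), and in these the 20 most abundant genes took 32.2% and 32.4% of all counts, against 34.5% to 37.6% in the other 18.

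Which subunit had the highest level depended on the length used, while the lowest did not. Per kilobase of the longest annotated transcript, a choice made after seeing the data, Psmb7 (277 ± 25.4 CPM per kilobase, SD, n = 20 libraries) and Psmb6 (270 ± 20.4) stood highest and did not differ beyond their spread. Per kilobase of all annotated exons, Psma6 (140 ± 16.2), Psmc5 (136 ± 14.7) and Psmd8 (134 ± 22.1) stood highest, and Psmb6 (115 ± 8.69) and Psmb7 (94.1 ± 8.60) ranked 5 and 9 of 34. By transcript length the lowest 3 were the base chaperones Psmd9 (9.87 ± 0.522), Psmd10 (8.37 ± 0.547) and Psmd5 (3.37 ± 0.34), assembly factors that leave before the particle is complete. Every other subunit of the 34 stood above them, from 38.6 ± 4.40 CPM per kilobase for Psma2 upward. By exon length the same 3 chaperones were lowest, at 3.54, 8.15 and 2.05 CPM per kilobase for Psmd9, Psmd10 and Psmd5. Across the 20 libraries the coefficient of variation of a subunit ran from 5.29% for Psmd9 to 20.5% for the ATPase Psmc4.

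The first comparison asked what the loss of dietary cysteine does in mice that cannot make it, KO no-Cys against KO control diet. Of the 34 subunits, 14 rose and 0 fell at an adjusted p under 0.05, where 3.66% of 17340 genes tested rose and 2.63% fell. All 34 subunits passed the filter on low counts. The log2 fold change was above 0 for 31 of 34, with a median of 0.35 over the subunits, while the median over all genes was −0.02. At an unadjusted p under 0.05, 28 subunits were higher and 0 lower, against 11.2% of all genes higher. The libraries of both groups did not overlap for 22 subunits, all of them higher on the no-Cys diet, against 11.4% of all genes higher without overlap. By role, the calls were 3 of 7 in the alpha ring (median log2 fold change 0.29), 0 of 7 in the beta ring (0.25), 3 of 6 among the base ATPases (0.40), 3 of 3 among the base non-ATPases (0.55), 5 of 8 in the lid (0.40) and 0 of 3 among the base chaperones (−0.04). This came to 3 of 14 in the core particle (median 0.28) and 11 of 20 in the regulatory particle, the 3 base chaperones included (median 0.40). Whether the particles differed was not tested. The tissue is bulk muscle, so a change in the share of a cell type and a change in RNA per cell cannot be told apart.

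**Figure D1:**
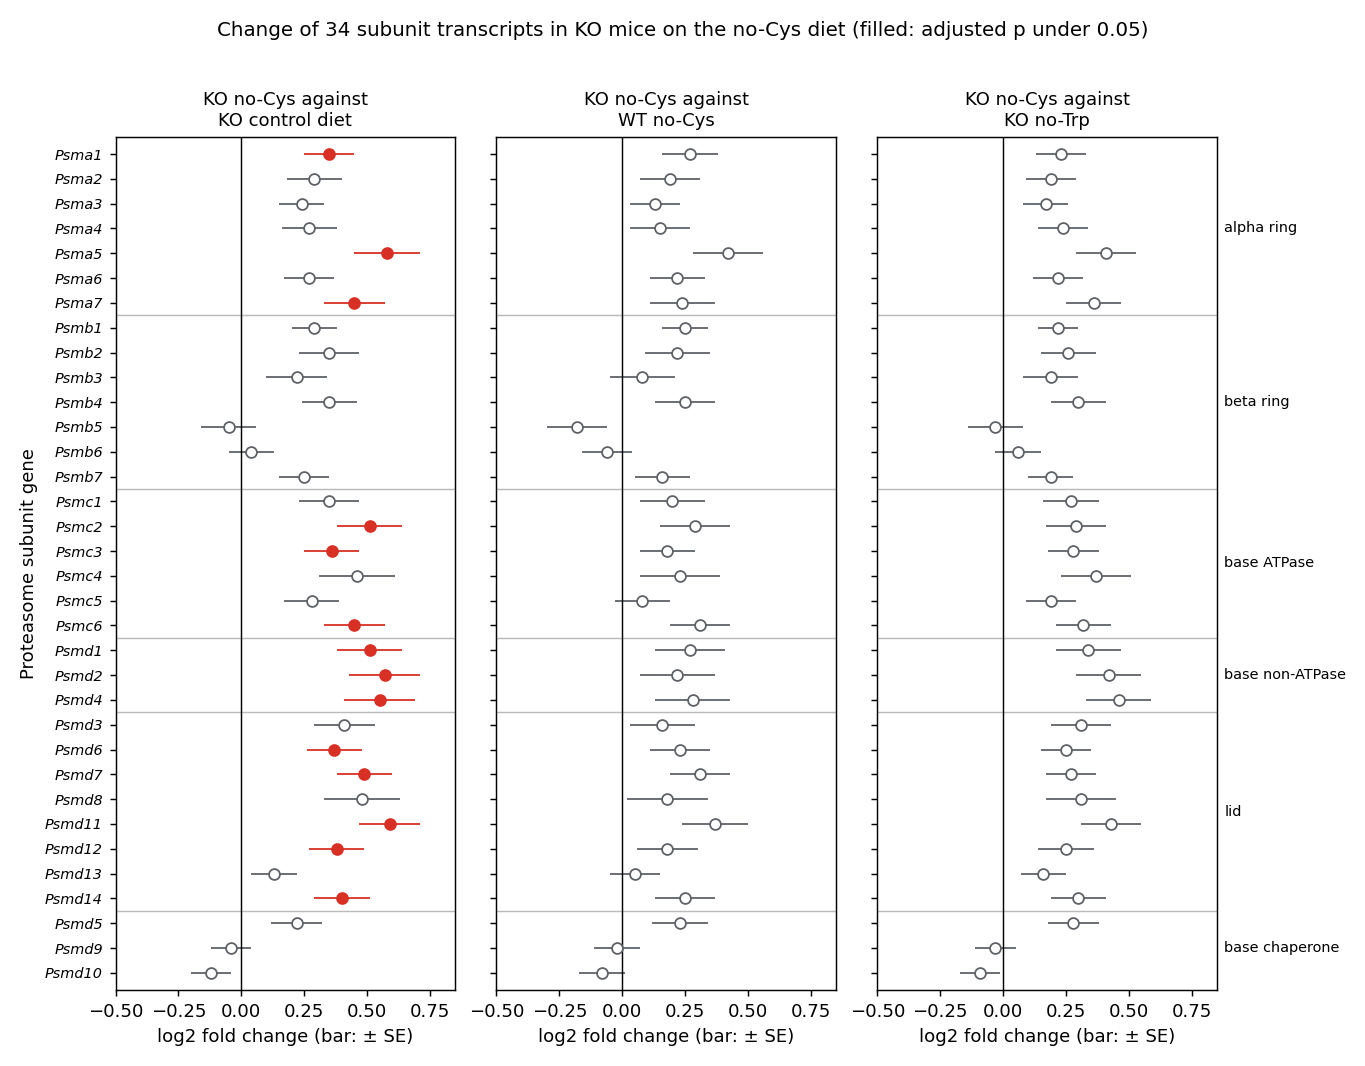
Log2 fold change (x axis, bars ± SE from edgeR) of the 34 subunit transcripts, grouped by role on the y axis, for KO no-Cys mice against KO control-diet, WT no-Cys and KO no-Trp mice; filled red points have an adjusted p under 0.05. In the left panel 14 points are filled and 31 of 34 lie above 0, while no point is filled in the other panels, and Psmb5, Psmb6, Psmd9 and Psmd10 lie near 0 in the left and right panels, with Psmb5 at −0.18 in the middle one.

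Psmd11 (ENSMUSG00000017428, chr11:80428615-80473248, plus strand, GRCm38), a lid subunit that bridges the lid to the core particle, had the smallest p. Its level was 201, 165 and 150 CPM in the KO no-Cys libraries and 110, 104, 112 and 130 CPM in the KO control-diet libraries. It was 156, 123 and 120 CPM in WT no-Cys, 115, 121 and 126 CPM in WT control, 156 and 126 CPM in WT no-Trp and 144, 136, 123, 107 and 125 CPM in KO no-Trp mice. The KO no-Cys libraries lay above every KO library of the other diets, while a WT no-Cys and a WT no-Trp library, mice av08 and av16, both at 156 CPM, reached into their range. Psmd11 rose 1.51-fold against the KO control diet (log2 fold change 0.59, SE 0.12, edgeR adjusted p = 0.0078).

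Psma5 (ENSMUSG00000068749, chr3:108256926-108279974, plus strand), an alpha ring subunit, stood at 96.1, 86.6 and 83.1 CPM in KO no-Cys mice and at 63.8, 51.1, 55.2 and 66.3 CPM in KO control-diet mice. The groups did not overlap, and Psma5 rose by 0.58 on the log2 scale ( SE 0.13, edgeR adjusted p = 0.00971). The other groups held 81.5, 60.5 and 56.1 CPM in WT no-Cys, 60.6, 66.4 and 63.0 CPM in WT control, 88.9 and 64.3 CPM in WT no-Trp, and 71.3, 67.7, 65.8, 58.9 and 70.3 CPM in KO no-Trp mice. Only mouse av16 of WT no-Trp exceeded the lowest KO no-Cys value. Psmd7 (ENSMUSG00000039067, chr8:107580381-107588464, minus strand), the lid partner of the deubiquitinase Psmd14, stood at 323, 293 and 265 CPM in KO no-Cys mice against 204, 188, 203 and 238 CPM in KO control-diet mice, a 1.41-fold rise (log2 0.49, SE 0.11, adjusted p = 0.00977). Its levels were 269, 229 and 210 CPM in WT no-Cys, 212, 234 and 222 CPM in WT control, 249 and 238 CPM in WT no-Trp, and 265, 247, 234, 206 and 263 CPM in KO no-Trp mice, so the highest KO no-Trp library met the lowest KO no-Cys library.

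**Figure D2:**
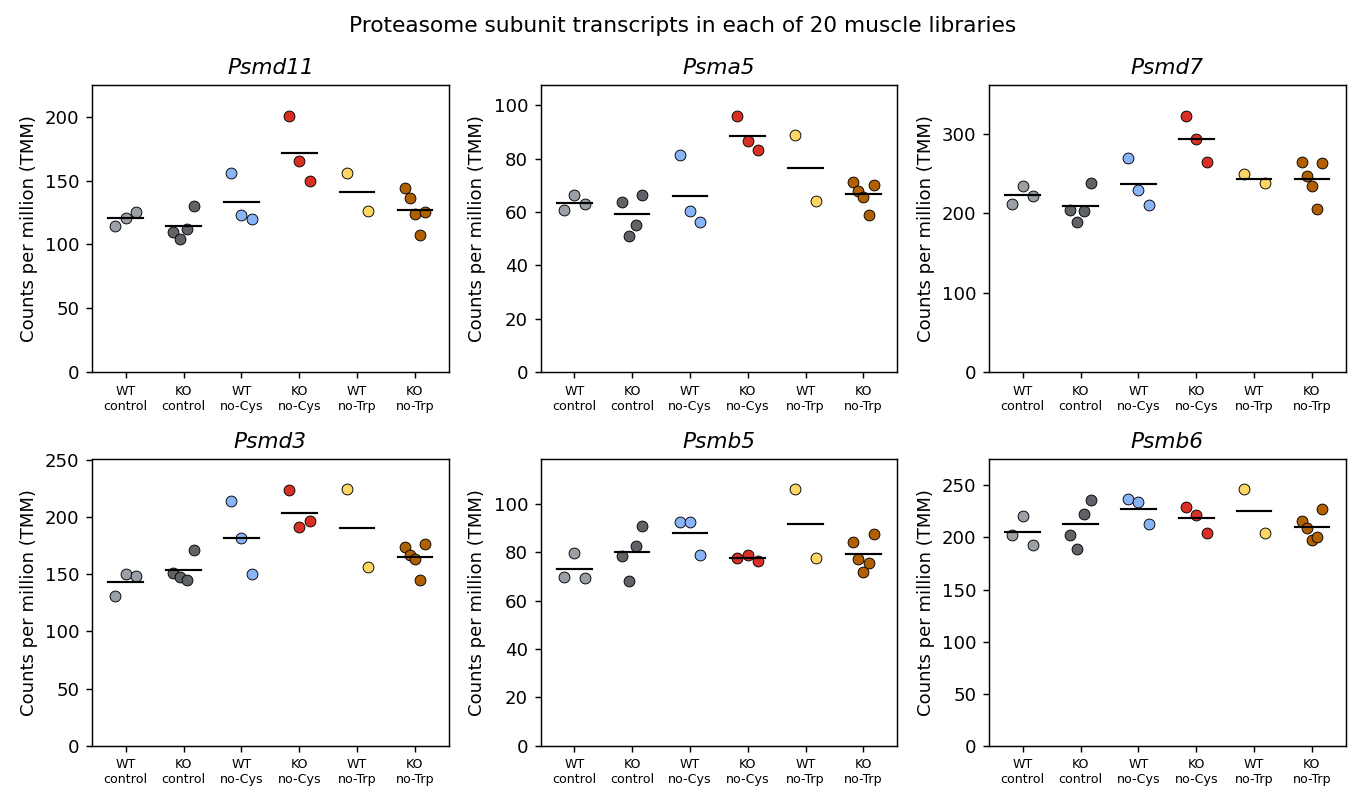
TMM-scaled CPM (y axis from 0) of Psmd11, Psma5, Psmd7, Psmd3, Psmb5 and Psmb6 in each library, grouped by genotype and diet; each point is a mouse and each line a group mean. KO no-Cys points are the highest group for Psmd11, Psma5 and Psmd7, whereas for Psmb5 they lie between 76.3 and 78.8 CPM, inside the KO control-diet range of 68.2 to 90.9.

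All 3 base subunits that are not ATPases rose. These were Psmd2 (1.48-fold, adjusted p = 0.0198) and Psmd1 (1.42-fold, adjusted p = 0.0256), the large scaffolds that dock substrates and cofactors, and Psmd4 (1.47-fold, adjusted p = 0.0192), a ubiquitin receptor. Among the ATPases, Psmc2 (1.42-fold), Psmc6 (1.37-fold) and Psmc3 (1.28-fold) rose, with adjusted p from 0.0217 to 0.0459. In the lid, Psmd14, the subunit that cuts off the ubiquitin chain, rose 1.32-fold (adjusted p = 0.0354), Psmd12 1.30-fold (adjusted p = 0.0494) and Psmd6 1.29-fold (adjusted p = 0.0465). The alpha ring subunits Psma7 (1.36-fold) and Psma1 (1.27-fold) had adjusted p of 0.0288 and 0.0426. Several subunits stood close to the threshold: inside it Psmd12, and outside it Psmb1 (log2 0.29, adjusted p = 0.0512), Psmd3 (0.41, adjusted p = 0.0518) and Psmd8 (0.48, adjusted p = 0.0572). All adjusted p in this paragraph are from edgeR over 17340 genes.

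The catalytic subunits of the beta ring were not among the calls. These genes have pseudogenes named after them, so their counts are less certain. Psmb5 (ENSMUSG00000022193, chr14:54614119-54618022, minus strand), which carries the chymotrypsin-like site, stood at 77.4, 78.8 and 76.3 CPM in KO no-Cys mice and at 78.5, 68.2, 82.5 and 90.9 CPM in KO control-diet mice (log2 fold change −0.05, SE 0.11, edgeR adjusted p = 0.851). Its KO no-Cys libraries lay inside the KO control-diet range. Elsewhere it was at 92.5, 92.5 and 78.7 CPM in WT no-Cys, 70.0, 79.6 and 69.2 CPM in WT control, 106 and 77.7 CPM in WT no-Trp, and 84.3, 77.4, 71.7, 75.6 and 87.6 CPM in KO no-Trp mice. Psmb6 (ENSMUSG00000018286, chr11:70525367-70527858, plus strand), with the caspase-like site, stood at 230, 222 and 205 CPM in KO no-Cys and at 202, 189, 223 and 236 CPM in KO control-diet mice (log2 0.04, SE 0.09, adjusted p = 0.848). Its other values were 236, 234 and 213 CPM in WT no-Cys, 202, 221 and 192 CPM in WT control, 246 and 204 CPM in WT no-Trp and 216, 209, 198, 201 and 228 CPM in KO no-Trp mice, so that all 6 groups overlapped with at least one other. Psmb7 (ENSMUSG00000026750, chr2:38588036-38644087, minus strand), with the trypsin-like site, lay at 362, 386 and 338 CPM in KO no-Cys mice, above its 288, 265, 324 and 336 CPM in KO control-diet mice, and did not pass the test (log2 0.25, SE 0.10, adjusted p = 0.13). In the remaining groups Psmb7 was at 357, 305 and 311 CPM in WT no-Cys, 306, 323 and 294 CPM in WT control, 354 and 297 CPM in WT no-Trp, and 344, 318, 311, 290 and 326 CPM in KO no-Trp mice. A p that misses the threshold does not show that these transcripts were equal between the diets. Among the base chaperones the log2 fold changes were 0.22 for Psmd5, −0.04 for Psmd9 and −0.12 for Psmd10, and none passed (adjusted p from 0.213 to 0.832).

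NRF1 and NRF2 bind antioxidant response elements, whose core letters are TGACNNNGC. RefSeq promoter windows of GRCm38.p6, from 250 bases before to 50 bases after the annotated start, were found for 28 of the 34 subunits. Psmb1, Psmb2, Psmb7, Psmc3, Psmd3 and Psmd7 were not matched. Searched on both strands, the core letters occurred in 5 of the 28 (17.9%), against 3781 of 27025 genes with a window (14.0%). They stood in 2 of the 12 windows of subunits that rose against the KO control diet and in 3 of the 16 of those that did not pass. The stretches with the match are shown because they belong to subunits on both sides of this comparison, Psmc6 and Psmd12, which rose, and Psmb5, Psmb6 and Psmd9, which did not pass. Each reads 5′ to 3′ on the strand of the gene with the matching letters, or those of the opposite strand, in capitals. A match is only a description of letters, and no factor binding was measured.
Psmb5, chr14:54618014-54618062, minus strand, match starting 47 bases before the start: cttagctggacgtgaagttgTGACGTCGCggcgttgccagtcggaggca
Psmb6, chr11:70525328-70525356, plus strand, 9 bases before the start: cagaggcggactaaagagagTGACGGAGC
Psmd9, chr5:123228139-123228187, plus strand, 31 bases before the start: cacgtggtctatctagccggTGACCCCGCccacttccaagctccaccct
Psmc6, chr14:45329577-45329625, plus strand, 227 bases before the start, match on the opposite strand: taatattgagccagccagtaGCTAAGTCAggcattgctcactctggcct
Psmd12, chr11:107479278-107479309, plus strand, 247 bases before the start, match on the opposite strand: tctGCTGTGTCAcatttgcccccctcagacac

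Libraries of one group also differed in their subunit levels. In each library the deviation of every subunit from its own mean over the 20 libraries was taken on the log2(CPM + 0.5) scale. In KO no-Cys mice the median deviation was 0.367, 0.195 and 0.113 for mice av12, av14 and av15, with 31, 31 and 28 of 34 subunits above their means. In KO control-diet mice the medians were −0.161, −0.268, −0.103 and 0.032 for mice av04 to av07. Outside the KO no-Cys group, the libraries that stood highest were mouse av16 (WT no-Trp, median 0.318, 31 of 34 above) and mouse av08 (WT no-Cys, 0.207, 34 of 34 above). Their group mates lay at −0.07 for mouse av18 and at −0.05 and −0.085 for mice av09 and av11. Core and regulatory medians were 0.325 and 0.417 in mouse av12, 0.308 and 0.318 in mouse av16, and 0.134 and 0.252 in mouse av08. Mice av12 and av16 are the libraries with the lowest skeletal fibre marker sums and the lowest share of counts in the 20 most abundant genes, and the part of either in the subunit levels was not tested. Mouse av12 also had the highest sum of slow fibre markers, 1170 CPM against 536 and 627 CPM in the other KO no-Cys libraries and 454 to 725 CPM in KO control-diet mice. None of the 7 slow fibre markers passed the test in that comparison. In mouse av08 the adipocyte marker sum was 838 CPM, against 3870 and 4330 CPM in its group mates. That sum was 649 CPM in mouse av22 and 1240 CPM in mouse av17 (both KO no-Trp, subunit medians 0.025 and 0.015). In mouse av15 (KO no-Cys, subunit median 0.113) it was 1380 CPM. The part of the adipocyte sum in the subunit levels was not tested.

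**Figure D3:**
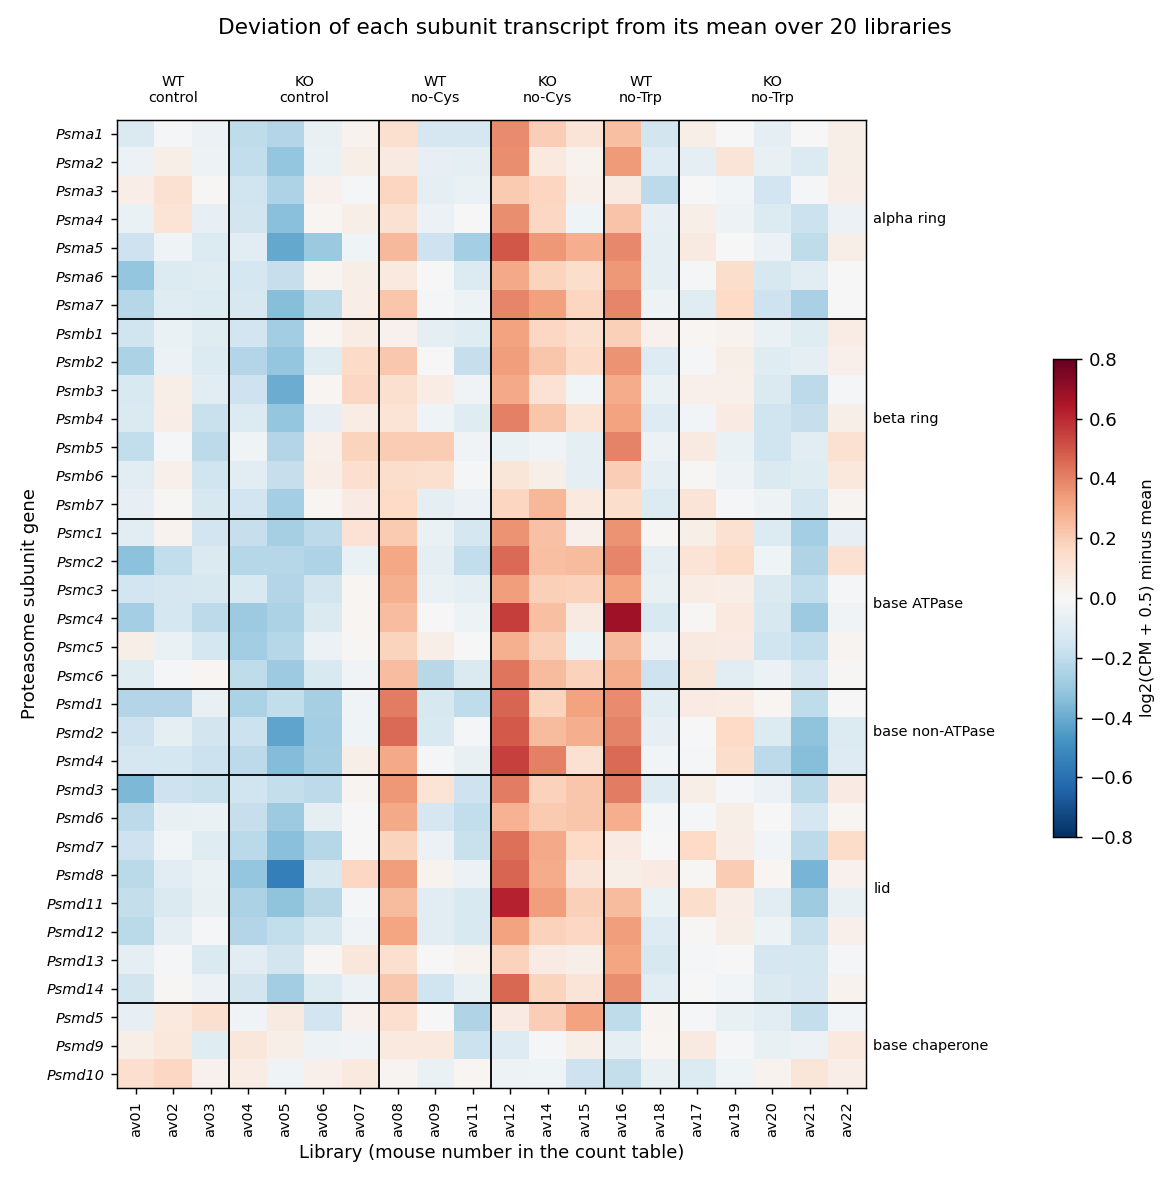
Deviation of each of the 34 subunit transcripts (rows, by role) from its mean over 20 libraries, as log2(CPM + 0.5) minus the mean (colour scale), in each library (columns, by genotype and diet). Mouse av12 (KO no-Cys), mouse av16 (WT no-Trp) and mouse av08 (WT no-Cys) show the broadest red columns, with medians of 0.367, 0.318 and 0.207, and Psmb5, Psmb6 and the base chaperones do not follow the rest in mouse av12.

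The 14 calls rested on the KO no-Cys and KO control-diet libraries unevenly. Without mouse av12, edgeR called 0 of the 34 at an adjusted p under 0.05, and 207 higher and 167 lower among 17389 genes. At an unadjusted p under 0.05, 21 of the 34 were then higher, against 1619 of all 17389 genes. The 14 subunits then had adjusted p from 0.0577 to 0.19 and log2 fold changes from 0.27 to 0.53, and the median over the 34 was 0.29. Leaving out a KO control-diet library gave 7, 4, 3 and 18 calls for mice av04, av05, av06 and av07, while all genes called higher went from 634 to 426, 410, 259 and 528. Leaving out mouse av14 or av15 gave 6 or 10 calls, with 352 or 439 over all genes. With all libraries, DESeq2 called 19 subunits and 909 of 17340 genes higher, and limma voom with sample weights called 21 and 877. The calls fell to 9 subunits and 426 genes higher when library sizes were taken without the 20 most abundant genes. The direction held for all 14 in each of these fits.

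**Figure D4:**
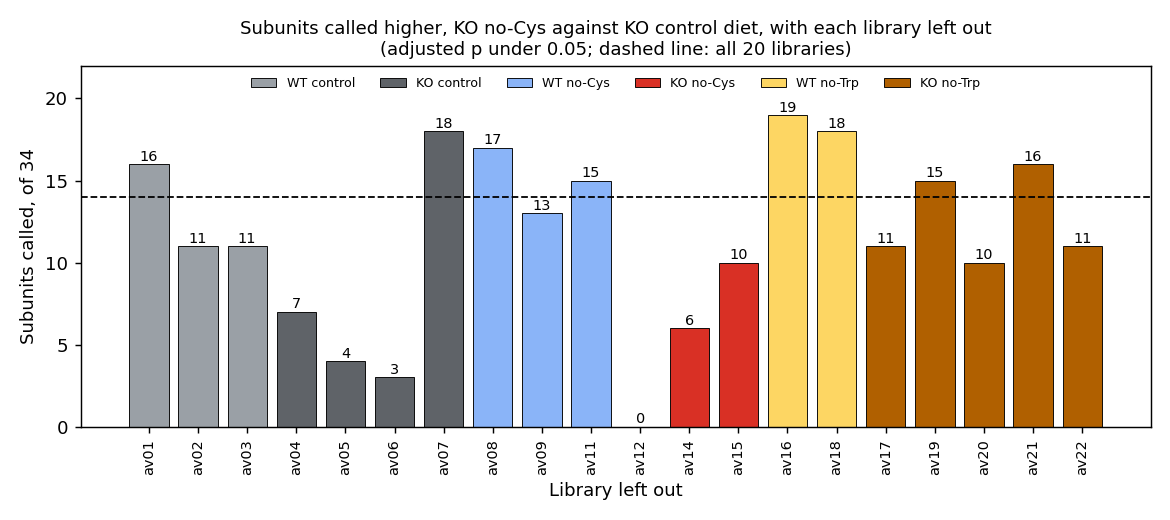
Number of the 34 subunits called higher in KO no-Cys than in KO control-diet mice (y axis, adjusted p under 0.05, edgeR) when the library on the x axis was left out, coloured by group; the dashed line marks the 14 calls with all 20 libraries. The bar for mouse av12 is at 0, those for mice av06 and av05 are at 3 and 4, and the highest, for mouse av16, is at 19.

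The comparison of genotypes on the no-Cys diet asked whether the subunits differed between KO and WT mice on that diet. Alone it cannot separate a standing difference between the genotypes from a response to the diet. In KO against WT no-Cys mice, edgeR called 0 of the 34 subunits, where 0.859% of all genes were called higher and 0.934% lower. At an unadjusted p under 0.05, 10 were higher and 0 lower, against 6.81% of all genes higher. DESeq2 called 0 subunits, with 273 of 17340 genes called higher. With sample weights, limma voom called 4 (Psma5, Psmd11, Psmc6 and Psmd7), with 361 of 17340 genes called higher. The median log2 fold change over the subunits was 0.22, with 30 of 34 above 0, and −0.18 for Psmb5 was the lowest. Slow fibre markers moved with this comparison: their sums were 536 to 1170 CPM in KO and 370 to 381 CPM in WT no-Cys mice, without overlap, and all 7 had a log2 fold change above 0 (median 1.36), although none was called. On the control diet all 7 also had a log2 fold change above 0 in KO against WT mice (median 1.19), again without a call. Their sums there were 454 to 725 CPM in KO mice and 52.0, 387 and 459 CPM in WT mice av01, av02 and av03. The part of these markers in the subunit values was not tested. The libraries did not overlap for 4 subunits, Psmb4, Psmb1, Psma6 and Psma5, all higher in KO mice, against 8.28% of all genes. Psma5 had the smallest p (log2 0.42, SE 0.14, edgeR adjusted p = 0.127). Mouse av08, the WT no-Cys library with all 34 subunits above their means, bore on this comparison: without it edgeR called 4 subunits, Psma5, Psmd6, Psmd1 and Psmc6, with 322 genes called higher in all, and the log2 fold change of Psma5 was 0.60 (adjusted p = 0.0175). Other libraries bore on it the opposite way. Without mouse av11 or mouse av12 the median over the subunits was 0.14, and 2 subunits were higher at an unadjusted p under 0.05. Of all genes, 886 of 17371 and 964 of 17389 were then higher at that threshold. Without mouse av09 the median was 0.17 and 4 subunits were higher, with 909 of 17386 genes.

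To set the loss of cysteine beside the loss of another amino acid, KO no-Cys mice were compared with KO no-Trp mice. By edgeR 0 of the 34 subunits passed, where 0.473% of all genes were called higher and 0.83% lower, and 24 subunits were higher and 0 lower at an unadjusted p under 0.05, against 6.02% of all genes higher. The median log2 fold change was 0.26, with 31 of 34 above 0. The libraries did not overlap for 18 subunits, all higher on the no-Cys diet, against 4.76% of all genes. Psmd11 had the smallest p (log2 0.43, SE 0.12, edgeR adjusted p = 0.0692), and the log2 fold changes of Psmd4 and Psmd2, 0.46 and 0.42, were of like size. DESeq2 called 3 subunits (Psmd4, Psmd11 and Psma5) and limma voom 2 (Psmd4 and Psmd11), with 210 and 136 of 17340 genes called higher. In edgeR 3 passed without mouse av16 or without mouse av19 (165 and 163 genes called higher in all). There were 2 without mouse av08 or mouse av15 (125 and 96 genes), and 1 without mouse av18 (134 genes). Without mouse av12 none passed, with 15 genes called higher. The 24 subunits at an unadjusted p under 0.05 then became 9, with 915 of 17389 genes higher. This comparison shares the KO no-Cys libraries with those above.

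In the other 4 comparisons of groups no subunit was called by edgeR, DESeq2 or limma voom with all libraries. KO no-Trp against KO control-diet mice gave a median log2 fold change of 0.09, with 0.0288% of all genes called higher and 0.0231% lower, and 1 subunit was higher at an unadjusted p under 0.05, against 4.93% of all genes. That subunit was Psmd7 (log2 0.22, SE 0.09, edgeR adjusted p = 0.487). The median was 0.03 without mouse av05, 0.04 without mouse av19, 0.05 without mouse av04, 0.06 without mouse av17 and 0.14 without mouse av07. WT no-Cys against WT control-diet mice gave a median of 0.12, with 29 of 34 above 0, 0.0404% of all genes called higher and 0.0115% lower, and 2 subunits higher at an unadjusted p under 0.05, against 6.6% of all genes. That median rested on mouse av08, without which it was 0.02, with 20 of 34 above 0. Without that library 0 subunits were higher at an unadjusted p under 0.05, against 894 of 17269 genes. The smallest p was that of the lid subunit Psmd3, at 214, 182 and 150 CPM in WT no-Cys mice and 131, 150 and 149 CPM in WT control-diet mice (log2 0.35, SE 0.13, edgeR adjusted p = 0.327). Psmd3 was at 151, 147, 145 and 171 CPM in KO control, 223, 191 and 196 CPM in KO no-Cys, 224 and 157 CPM in WT no-Trp and 174, 167, 163, 144 and 176 CPM in KO no-Trp mice, so its KO no-Cys libraries were above every other KO library but not above the highest WT no-Cys and WT no-Trp ones. In this WT comparison 7 subunits were higher and 1, Psmd10, lower without overlap, against 8.09% and 8.4% of all genes.

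On the control diet the genotypes differed by a median log2 fold change of −0.03 over the subunits, with 0.0% of all genes called and 0 subunits, against 7.16% of all genes, at an unadjusted p under 0.05 in edgeR. The median lay between −0.08 and 0.01 over the fits with 1 library left out, and was above 0 without mouse av05. Psma3, an alpha ring subunit, had the smallest p, with 178, 167, 203 and 196 CPM in KO and 206, 216 and 199 CPM in WT mice (log2 −0.15, SE 0.09, edgeR adjusted p = 0.771). These groups overlapped. Psma3 was at 224, 188 and 191 CPM in WT no-Cys, 230, 224 and 204 CPM in KO no-Cys, 209 and 172 CPM in WT no-Trp and 198, 196, 179, 197 and 206 CPM in KO no-Trp mice. On the no-Trp diet the median was −0.16, with 4 of 34 above 0, 0.0% of all genes called, and 2 subunits lower at an unadjusted p under 0.05, against 2.7% of all genes. Psmc4, an ATPase of the base, had the smallest p there. It was at 124, 130, 113, 101 and 121 CPM in KO no-Trp mice and at 197 and 113 CPM in the WT no-Trp mice av16 and av18 (log2 −0.40, SE 0.16, edgeR adjusted p = 0.923). This difference rested on mouse av16, since without that library the log2 fold change of Psmc4 was 0.04 and the median over the subunits 0.03. Without mouse av18 the median was −0.36. In both of these fits the WT no-Trp group is a single library, assumed to vary like the libraries of the other groups. In the remaining groups Psmc4 was at 102, 112 and 106 CPM in WT control, 100, 103, 114 and 124 CPM in KO control, 146, 123 and 120 CPM in WT no-Cys and 181, 146 and 129 CPM in KO no-Cys mice.

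Whether the effect of the no-Cys diet differed between genotypes was tested as the interaction of genotype and diet. The interaction was above 0 for 31 of the 34 subunits, with a median of 0.24 on the log2 scale, and edgeR called 0, where 0.0577% of all genes were called higher and 0.0634% lower. At an unadjusted p under 0.05, 5 subunits were higher and 0 lower, against 5.37% of all genes higher. That count was 14 without mouse av08, 10 without mouse av15 and 9 without mouse av07, with 1299 of 17269, 921 of 17423 and 865 of 17273 genes higher. It was 2 without mouse av09, av11 or av12, with 709 of 17386, 809 of 17371 and 863 of 17389 genes higher. The smallest p was that of Psma5 (0.52, SE 0.19, edgeR adjusted p = 0.27), which limma voom with sample weights called (adjusted p = 0.0484) and DESeq2 did not. Of 17340 genes, limma voom called 120 higher. The lowest value was −0.32 for Psmb5.

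Around the subunits, 57 other genes of the ubiquitin and proteasome pathway and of the oxidative stress response were followed, of which 54 could be tested. In KO no-Cys against KO control-diet mice 21 rose and 2 fell. Of the transcripts of other subunits of the particle and of the deubiquitinases bound to it, Adrm1, a ubiquitin receptor subunit, and the deubiquitinase Usp14 rose. The subunit Sem1 (log2 −0.25) and the deubiquitinase Uchl5 (−0.02) did not pass. Of the activators and inhibitor, 1 of 5 rose, Psme4, which caps core particles without the need for ubiquitin, at 398, 406 and 408 CPM in KO no-Cys against 271, 237, 262 and 297 CPM in KO control-diet mice (log2 0.60, SE 0.13, edgeR adjusted p = 0.00837). None of the 6 assembly factors tested rose or fell. Among 8 genes of the NRF1 pathway, 3 rose: the deglycosylase Ngly1, which activates NRF1, and Mafg (log2 0.64, edgeR adjusted p = 0.00194) and Bach1 (1.11, adjusted p = 0.00149), a partner and a competitor at the same DNA elements. The transcript of NRF1 itself, Nfe2l1, had a log2 fold change of 0.13 (SE 0.10, adjusted p = 0.473). Nfe2l2, the gene of NRF2, had a log2 fold change of 0.43 (SE 0.13, adjusted p = 0.0505), and against KO no-Trp mice it rose (0.61, SE 0.12, adjusted p = 0.0147).

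The inducible core subunits moved the other way. These replace the 3 catalytic subunits in cells exposed to interferon and are abundant in immune cells. Psmb10 fell from 22.5, 21.6, 24.6 and 20.4 CPM in KO control-diet mice to 13.3, 16.1 and 11.4 CPM in KO no-Cys mice (log2 −0.72, SE 0.11, edgeR adjusted p = 0.00121), without overlap. Psmb9 fell as well (log2 −1.05, SE 0.29, adjusted p = 0.0379), and Psmb8 did not pass (−0.93, SE 0.31, adjusted p = 0.0837). The other 2 genes of that list had too few counts to be tested. The sum of 7 immune markers was 95.1 to 120 CPM in KO no-Cys and 102 to 132 CPM in KO control-diet mice, and none of the 7 was called. Psmb9, Psmb10 and Psmb8 were not called against WT no-Cys mice (median log2 fold change −0.49), where the sum of the immune markers was 65.8 to 142 CPM. These genes were also lower, without a call, on other diets and in WT mice. Their median log2 fold change was −0.47 in KO no-Trp against KO control-diet mice and −0.49 in WT no-Cys against WT control-diet mice. Of the other marker lists, 1 of 4 fibroblast genes, Col3a1, was called lower in KO no-Cys than in KO control-diet mice (log2 −1.69), while Col1a1 (−1.62), Dcn (0.29) and Pdgfra (0.15) did not pass and the summed ranges overlapped, at 400 to 451 and 377 to 552 CPM. Of 5 blood genes, Hba-a2 (−1.09) and Hbb-bt (−1.10) were called lower, and the sums were 116 to 229 and 253 to 289 CPM. Their part in any subunit value was not tested.

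All 6 NRF2 target genes rose against the KO control diet, with a median log2 fold change of 0.81. Hmox1, which degrades haem, was at 23.0, 42.5 and 35.9 CPM in KO no-Cys and 6.86, 6.79, 12.7 and 9.04 CPM in KO control-diet mice (log2 1.93, SE 0.23, edgeR adjusted p = 0.000318). The others were Srxn1 (1.47, adjusted p = 0.000101), the subunits of the enzyme that starts glutathione synthesis, Gclm (1.02, adjusted p = 0.000261) and Gclc (0.61, adjusted p = 0.00194), Txnrd1 (0.55, adjusted p = 0.00766) and Nqo1 (0.54, adjusted p = 0.0109). Against WT no-Cys mice 5 of the 6 rose, against KO no-Trp mice 3 of 6, and 3 of 6 had an interaction of genotype and diet. Without mouse av12 all 6 were still called against the KO control diet, whereas no subunit of the 34 was.

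Of the genes that deliver substrates, 3 of 6 of the VCP complex rose, Vcp, Nploc4 and Ufd1 (Ufd1, log2 0.35, SE 0.08, edgeR adjusted p = 0.00971). Among the shuttle receptors Rad23b and Ubqln2 rose, Ubqln2 (0.42, adjusted p = 0.00574) also against WT no-Cys mice (0.40, adjusted p = 0.024). Ubb, a polyubiquitin gene, was the only one of 6 ubiquitin and activating enzyme genes to rise. Of 5 ubiquitin ligases linked to muscle atrophy, Fbxo32, Fbxo30 and Fbxo31 rose. Fbxo32 and Trim63 are the ligases most used as atrophy markers and are given for that reason, with their values known. Fbxo32 was at 1620, 1170 and 839 CPM in KO no-Cys and 403, 472, 420 and 770 CPM in KO control-diet mice (log2 1.23, SE 0.34, edgeR adjusted p = 0.0455). Trim63 was at 2010, 1210 and 738 CPM and at 277, 386, 453 and 664 CPM (log2 1.57, SE 0.49, adjusted p = 0.072). For both genes mouse av12 was the highest KO no-Cys library, and mouse av16 was the higher of the WT no-Trp libraries, at 1290 against 613 CPM for Fbxo32 and 1810 against 650 CPM for Trim63. Without mouse av12, 10 of the 54 genes rose and 1 fell, the ligases were no longer called, and Psmb10, Psme4, Mafg, Bach1 and Ubqln2 were called beside the 6 NRF2 targets.

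**Figure D5:**
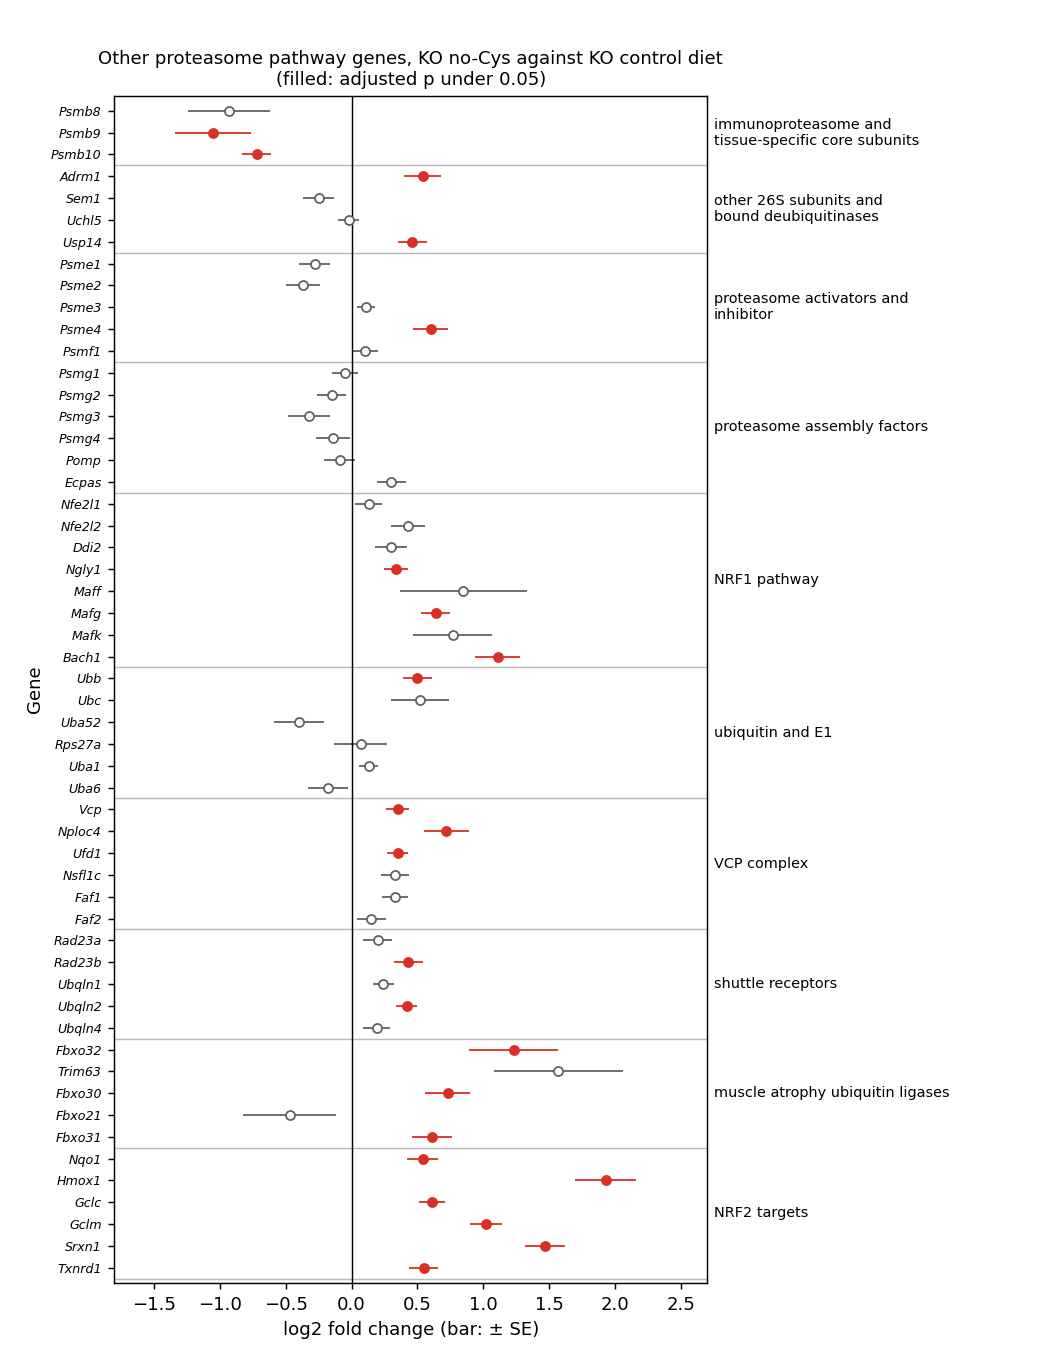
Log2 fold change (x axis, bars ± SE from edgeR) of the 54 other pathway genes tested, KO no-Cys against KO control-diet mice, grouped by list; filled red points have an adjusted p under 0.05. All 6 NRF2 targets are filled and above 0, from 0.54 for Nqo1 to 1.93 for Hmox1, whereas Psmb9 and Psmb10 are filled and below 0.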

How the data were processed

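Libraries of polyadenylated muscle RNA were sequenced as paired ends. The authors aligned reads to GRCm38 with HISAT2 2.1.0 and counted them per gene with HTSeq 0.11.0. Which annotation release and strand setting they used is not given in the sources used here. What was deposited are raw counts, whole numbers for each Ensembl gene without normalization. Of the 34 subunits, 9 share exon bases with another annotated gene, and 3 (Psmb5, Psmb6 and Psmb7) have pseudogenes named after them, so their counts are less certain. No column name occurs in the sample labels. Columns were grouped by name with the mouse numbers of the study's supplementary muscle list, whose blocks, read as centred under their headings, have the labelled group sizes. In that list, the normalized counts of 540 genes were, in each of 20 columns, within 0.1% of 1 constant multiple of the deposited counts. The columns of authors' comparisons in that list were not used.

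Genes were filtered with filterByExpr (17340 tested), scaled by TMM and fitted over all 20 libraries and 6 groups with edgeR 4.0.16 quasi-likelihood tests (R 4.3.3), Benjamini-Hochberg adjusted, threshold 0.05. Alternatives were DESeq2 1.42.0, the tool of the study, limma 3.58.1 voom with sample weights, RLE factors, no filter, only the groups compared, library sizes without the 20 most abundant genes, and each library left out in turn. Scripts were checked on simulated counts. P-values measure the spread between these libraries, which the labels call biological replicates. Members and gene lists were chosen with earlier results of these data known. Values in every library are given for the member with the smallest p in each comparison and for Psmb5, Psmb6 and Psmb7, and statistics for up to 12 other pathway genes called in the no-Cys comparisons of KO mice with WT no-Cys or KO control-diet mice, by smallest p. Paaf1, an assembly factor, was not matched to a row. Of 9 cell type marker lists, only the fibroblast and blood lists held genes called in any of the 8 comparisons. Figures and tables were made with Python 3.11.15.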

Additional observations from a re-analysis of the deposited data

Results flagged for a closer look

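In groups of 4 or 5 libraries, a value was picked out when its gap to the nearest other library was large for the range of the group. This happened for 2 of 68 groups of subunit values tested, where chance gives about 1 in 20. Psmc2 in KO control-diet mice was highest in mouse av07, at 190 CPM against 166 to 168 CPM in the others. Psmd1 in KO no-Trp mice was lowest in mouse av21, at 110 CPM against 127 to 132 CPM. No explanation was tested for either.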

How the results depend on the processing

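For KO no-Cys against KO control-diet mice the 14 subunit calls became 9 with library sizes without the 20 most abundant genes, where all genes gave 426 higher and 599 lower calls in place of 634 and 456, and ranged from 0 to 19 over 20 fits with 1 library left out. For KO no-Cys against WT no-Cys mice the count of 0 became 4 with limma voom, where 361 of all genes were called higher, and ranged from 0 to 4 over the left-out libraries. For KO no-Cys against KO no-Trp mice the count of 0 became 3 with DESeq2 (210 of all genes called higher), 2 without a filter (89), 2 with limma voom (136), 1 with the trimmed library sizes (94) and 1 with only the groups compared (47), and ranged from 0 to 3. For KO no-Trp against WT no-Trp mice the count stayed 0 in every fit that kept both WT no-Trp libraries. For the interaction it became 1 with limma voom, where 120 of all genes were called higher and 49 lower. The other comparisons gave 0 throughout. Values near 0 changed sign: against the KO control diet, the log2 fold change of Psmb6 was −0.0043 with the trimmed library sizes and ran from −0.0099 to 0.0928 over the left-out libraries, and that of Psmb5 from −0.116 to 0.0178. That of Psmc4 in KO against WT no-Trp mice ran from −0.7458 (without mouse av18) to 0.0401 (without mouse av16). The cause was not tested. No paired analysis was possible because the columns carry no replicate number. Groups of 2 to 5 mice, and block edges that the mouse list does not mark, limit every comparison.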
